A study of Drosophila melanogaster with 8 samples.

Results

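The genes described here encode proteins of the mitochondrial ribosome and were chosen by name, as every gene whose symbol starts with mRpL or mRpS. The RefSeq gene table holds 73 such genes, and 69 of them, among 11982 genes in all, were read by a probe set that names no other gene. Of the 69, 44 are large subunit genes (mRpL) and 25 are small subunit genes (mRpS), and 11 lie on X, 12 on 2L, 10 on 2R, 17 on 3L and 19 on 3R. A further 4 genes had no usable value: no probe set carried the symbols mRpL34 or mRpL37, and the probe sets of mRpL53 and mRpS10 name a neighbouring gene as well. Each gene was represented by its probe set of highest mean, and only mRpL47 and mRpS11 had a further probe set.

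RNA came from Kc cells, a female *Drosophila melanogaster* line that resembles embryonic blood cells. The arrays are Affymetrix expression arrays, and all values are log2 probe set signals as summarised by the authors with RMA. Cells had received double-stranded RNA against Sxl (Sxl RNAi, 3 arrays), against Sxl together with msl-2 (Sxl and Msl2 RNAi, also called the double knockdown, 2 arrays) or against GFP, a sequence foreign to the fly (GFP RNAi, 3 arrays). All 3 groups therefore share the cell line and exposure to double-stranded RNA, and no untreated cells and no second line were measured. SXL blocks the production of MSL2 in females, and MSL2 lets the male-specific lethal (MSL) complex assemble and raise transcription along X. The comparisons ask what the loss of SXL does to transcript levels and which of those differences need MSL2. The labels name a GFP array as the background control of each knockdown array, which gives 3 control sets. Set 1 holds Sxl RNAi replicate 2, Sxl and Msl2 RNAi replicate 1 and GFP replicate 1. Set 2 holds Sxl RNAi replicate 1 and GFP replicate 2. Set 3 holds Sxl RNAi replicate 3, Sxl and Msl2 RNAi replicate 2 and GFP replicate 3. Nothing in the labels says whether replicates were grown as separate cultures, and the p-values then cover the spread between these arrays only, which may be technical.

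Mitochondrial ribosomes translate the few messenger RNAs of the mitochondrial genome, all of which encode subunits of the oxidative phosphorylation system. Their RNAs are made inside the organelle, whereas all their proteins are encoded in the nucleus, made in the cytosol and imported. Many of these proteins have counterparts in bacterial ribosomes, others exist only in mitochondria, and the genes are scattered over the chromosomes. They have to supply both subunits of 1 particle from X-linked and autosomal genes, of which only the X-linked ones are subject to dosage compensation in males.

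The check of the knockdown comes first. The Sxl transcript differed by -0.51 after Sxl RNAi relative to GFP RNAi, short of the threshold (SE 0.17, limma adjusted p = 0.0934). Sxl read 7.37 in the array that carries the label of Sxl and Msl2 RNAi replicate 2, against 6.99 in its GFP array, so the transcript was not lower where the label has it targeted. In Sxl and Msl2 RNAi replicate 1 the difference from its GFP array was -0.55. After Sxl RNAi the pair differences were -1.11, -0.37 and -0.057 in control sets 1 to 3, so the set 3 array was hardly lower. These Sxl values come from 1 of 3 probe sets, that of highest mean. The msl-2 transcript rose after Sxl RNAi by 1.28 (adjusted p = 5.49e-04), and lay 1.43 higher in Sxl RNAi than in Sxl and Msl2 RNAi (adjusted p = 0.00398). Its mean over all arrays, 4.84, was below the expression limit of 5.24. Sxl and Msl2 RNAi differed from GFP RNAi by -0.16 for msl-2 (adjusted p = 0.684), so a level below the control was not shown. The X-linked gene mof, which encodes the acetyltransferase of the MSL complex, rose by 1.16 after Sxl RNAi (adjusted p = 6.54e-05) and by 0.75 after Sxl and Msl2 RNAi (adjusted p = 0.00193), both relative to GFP RNAi, and the difference between the knockdowns was 0.41 (adjusted p = 0.0545). The arrays of control set 2 stood apart from the rest. Over 5991 expressed genes their mutual correlation was 0.988, against 0.936 to 0.953 when set beside arrays of sets 1 and 3, and arrays of sets 1 and 3 gave at least 0.968. Of 12 plasmatocyte markers, 10 lay above the expression limit of 5.24 (NimC1 and Sr-CI did not), against 0 of 6 fat body, 1 of 4 muscle, 1 of 3 neuron and 2 of 5 germ line markers. After Sxl RNAi 1 plasmatocyte marker was called higher (Pxn) and 3 were called lower (He, Ppn and Glt) than after GFP RNAi, and after Sxl and Msl2 RNAi 1 was called higher (Pxn, by 1.37) and 2 lower (Ppn, at -1.63, and Glt, at -1.40). The part of these shifts in the results below was not tested.

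All 69 genes were expressed, with means over the 8 arrays between 7.17 and 10.70 (median 9.38). The brightest probe sets were those of mRpL30, mRpL33 and mRpS30, at 10.70, 10.63 and 10.57, and the dimmest those of mRpL45, mRpL11 and mRpL40, at 7.17, 7.66 and 7.90. These signals do not rank the transcripts, because probe sets differ in how well they bind. Most of the genes varied little. The median range over the 8 arrays was 0.389 for mRp genes and 0.559 for all expressed genes, and the median residual SD after fitting treatment and control set was 0.059 for mRp genes and 0.0868 for expressed genes. A range of at least 0.5 was found in 25 of the 69. The most variable was mRpL27, with a range of 2.32, followed by mRpL14 (1.31), mRpL10 (0.98), mRpL49 (0.96) and mRpL54 (0.94), as ordered by SD over the arrays.

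Sxl RNAi against GFP RNAi gave 6 mRp genes that rose and 0 that fell past an adjusted p of 0.05 in limma. That is 8.7% of the 69, beside 5.98% of all genes called higher, 4.35% called lower and 10.3% called in either direction. Of expressed genes, which all 69 are, 11.3% were called higher and 7.9% lower. At an unadjusted p under 0.05 there were 13 mRp genes, 9 of them higher, beside 21.9% of all genes. On X lie 5 of the 6 called genes, namely mRpL14, mRpL49, mRpL16, mRpS25 and mRpS14, and the sixth, mRpL27, lies on 2L. The count of calls rested on the control sets: with treatment as the only term, 0 mRp genes and 30 of all genes passed, and without control set 2 the number of mRp genes was 4, mRpS25 and mRpS14 being lost. The omission of any single Sxl RNAi or GFP array had the same effect on the calls. In bulk RNA of this kind a smaller share of cells and less transcript per cell cannot be told apart, and a change in total RNA per cell is not visible after the normalization.

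**Figure D1:**
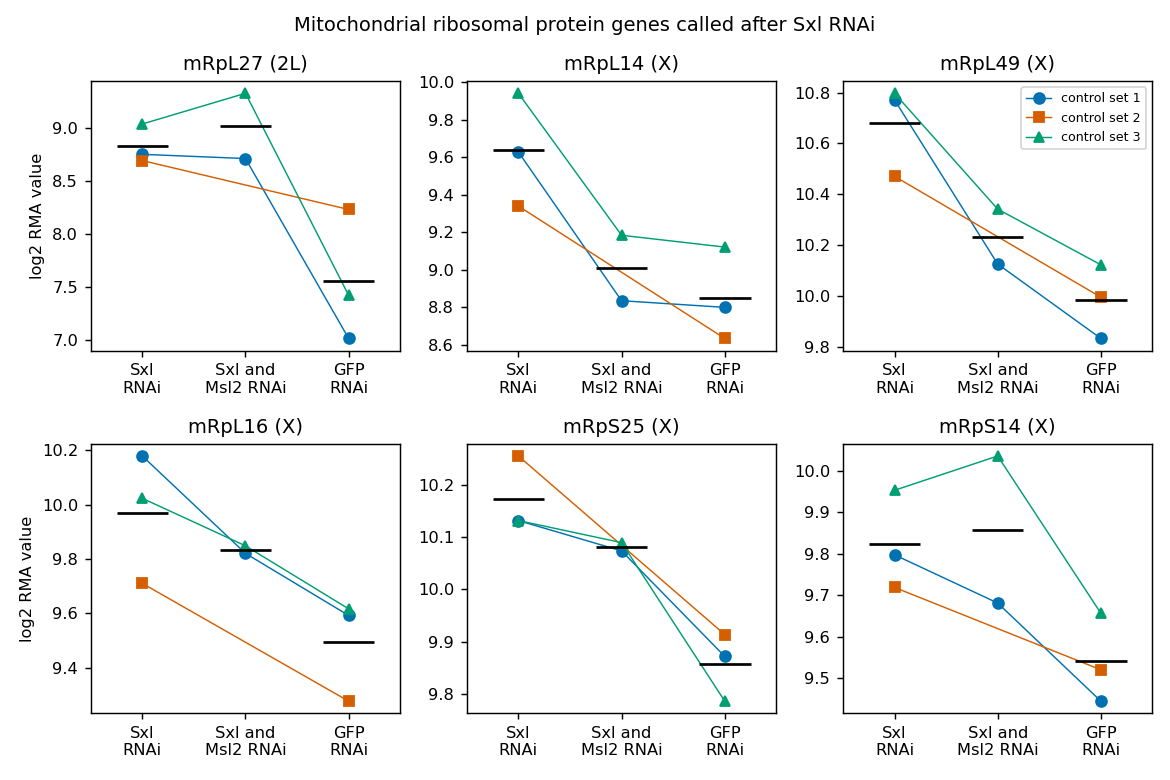
log2 RMA value (y axis, a separate scale in each panel) of the 6 genes called after Sxl RNAi, by treatment (x axis). Points are single arrays, joined within a control set, and black bars are group means. In each panel the 3 Sxl RNAi arrays lie above the 3 GFP arrays, and for mRpL14 the 2 Sxl and Msl2 RNAi arrays, at 8.84 and 9.18, lie near the GFP arrays.

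mRpL14 encodes the mitochondrial counterpart of bacterial L14, a protein of the face of the large subunit that meets the small subunit. Its probe set (1639171_at) read 9.34, 9.63 and 9.94 in Sxl RNAi replicates 1 to 3, 8.84 and 9.18 in Sxl and Msl2 RNAi replicates 1 and 2, and 8.80, 8.63 and 9.12 in GFP replicates 1 to 3. All Sxl RNAi arrays were above all others. It rose 1.72-fold over GFP RNAi (log2 0.78, SE 0.068, adjusted p = 3.55e-04), by 0.83, 0.71 and 0.82 in control sets 1, 2 and 3. mRpL49 encodes a large subunit protein found in mitochondria and not in bacteria. It read (1623859_at) 10.47, 10.77 and 10.80 after Sxl RNAi, 10.13 and 10.34 after Sxl and Msl2 RNAi, and 9.83, 9.996 and 10.12 after GFP RNAi. The Sxl RNAi arrays again lay above the rest, with a 1.62-fold rise over GFP RNAi (log2 0.70, SE 0.090, adjusted p = 0.00179). The pair differences of mRpL49 were 0.94, 0.48 and 0.67, the set 2 pair being the smallest.

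mRpL16 belongs to the L16 family, which sits near the site where aminoacyl-tRNA enters the large subunit. Its values (1629936_at) were 9.71, 10.18 and 10.02 after Sxl RNAi, 9.82 and 9.85 after Sxl and Msl2 RNAi, and 9.59, 9.28 and 9.62 after GFP RNAi. The set 2 arrays were the lowest of both treatments, and within sets the difference was 0.59, 0.43 and 0.41. The rise was 1.39-fold (log2 0.48, SE 0.072, adjusted p = 0.00357). mRpS25 encodes a small subunit protein specific to mitochondria, and mRpS14 a protein of the S14 family in the head of the small subunit. mRpS25 (1634823_at) had 10.25, 10.13 and 10.13 after Sxl RNAi, 10.07 and 10.09 after Sxl and Msl2 RNAi, and 9.87, 9.91 and 9.79 after GFP RNAi. Its arrays formed 3 groups that did not overlap, in that order. It rose 1.24-fold (log2 0.31, SE 0.068, adjusted p = 0.0180), by 0.26, 0.34 and 0.34 in the pairs. mRpS14 (1637172_at) had 9.72, 9.80 and 9.95 after Sxl RNAi, 9.68 and 10.04 after Sxl and Msl2 RNAi, and 9.45, 9.52 and 9.66 after GFP RNAi. Both knockdowns exceeded every GFP array, and the Sxl RNAi rise was 1.22-fold (log2 0.28, SE 0.074, adjusted p = 0.0394), with 0.35, 0.20 and 0.30 in the pairs. Its call was the least stable, being lost in 11 of 15 other settings, among them the omission of any single array.

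The remaining 6 X-linked genes did not pass. mRpL22 encodes a protein that lines the exit tunnel for the new chain. It read 10.39, 9.93 and 10.03 after Sxl RNAi, 9.72 and 10.02 after Sxl and Msl2 RNAi, and 9.68, 10.14 and 9.88 after GFP RNAi, so the groups overlapped. Within control sets the difference from GFP was 0.26, 0.25 and 0.14, and the fitted one 0.22 (SE 0.072, adjusted p = 0.0938). mRpL3, of a family that reaches towards the catalytic centre, differed by 0.12 (adjusted p = 0.351), mRpS30 by 0.11 (adjusted p = 0.409) and mRpL38 by 0.10 (adjusted p = 0.435). mRpL30 and mRpL33, both of bacterial type, differed by 0.048 and 0.046 (adjusted p = 0.783 and 0.787), with 95% intervals of -0.11 to 0.20 in both cases. Every X-linked mRp gene thus had a positive fitted difference, between 0.046 and 0.78, as did 892 of 1047 expressed X genes. In all 3 pairs 10 of the 11 were higher than the control, beside 68.3% of expressed X genes. The exception was mRpL30 in set 2, at -0.014.

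The X-linked genes and the autosomal ones were set apart in the direction seen for X and autosomes at large, by a smaller distance in each control set. On X, 5 of 11 passed and rose (45.5%), beside 41% of expressed X genes called higher and 1.62% called lower. Among the autosomal mRp genes 1 of 58 passed (1.72%), beside 4.99% of expressed autosomal genes called higher and 9.26% called lower. The median difference was 0.22 for X-linked mRp genes and 0.23 for 1047 expressed X genes, and -0.024 for autosomal mRp genes and -0.051 for 4927 expressed autosomal genes. The median of the X-linked minus that of the autosomal mRp genes was 0.22, 0.30 and 0.13 in control sets 1, 2 and 3 (mean 0.22 ± 0.087, SD, n = 3 pairs), and the same quantity over all expressed genes was 0.29, 0.34 and 0.25. The fitted value was 0.24 for mRp genes and 0.28 for all expressed genes, and 0.17 for mRp genes without control set 2. No autosomal arm had a median near that of X: it was 0.0035 on 2L, -0.075 on 2R, -0.0041 on 3L and -0.035 on 3R.

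**Figure D2:**
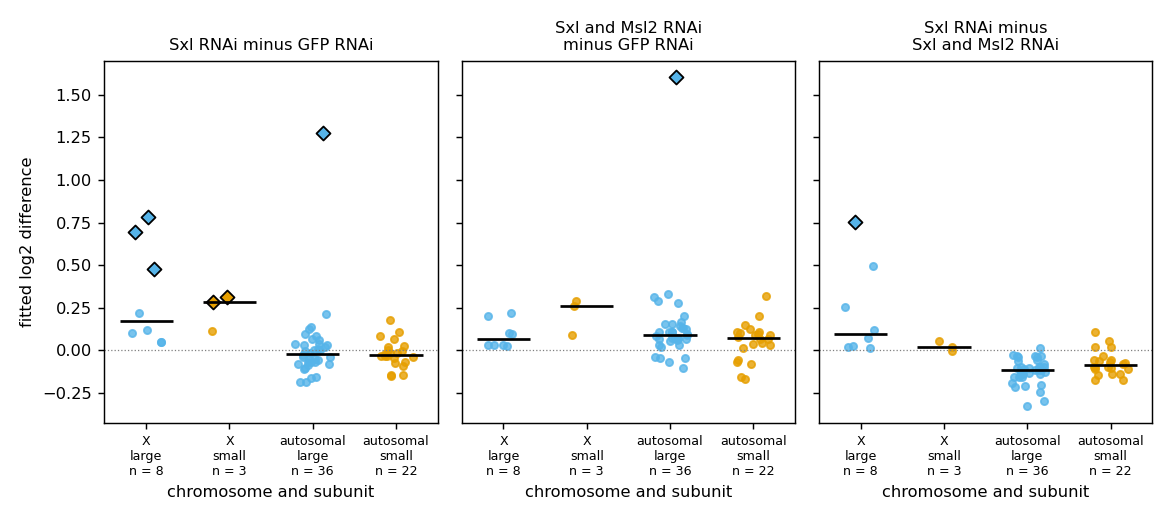
Fitted log2 difference (y axis) of each of the 69 genes in the 3 comparisons (panels), by chromosome and subunit (x axis). Circles are genes, diamonds with a black edge are genes past an adjusted p of 0.05, and horizontal bars are medians. After Sxl RNAi all 11 X-linked genes lie above 0, beside 892 of 1047 expressed X genes (not drawn). mRpL27, at 1.27 and 1.60, lies far from the other autosomal genes in both comparisons with GFP RNAi.

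mRpL27, the autosomal gene that rose, encodes the counterpart of bacterial L27, a protein that reaches towards the peptidyl transferase centre. Its probe set (1640834_at) gave 8.69, 8.75 and 9.04 in Sxl RNAi replicates 1 to 3, 8.71 and 9.33 in Sxl and Msl2 RNAi replicates 1 and 2, and 7.01, 8.23 and 7.42 in GFP replicates 1 to 3. The 5 knockdown arrays all exceeded the 3 GFP arrays, and GFP replicate 2, of control set 2, was the highest of the GFP arrays. After Sxl RNAi it was 2.42-fold higher (log2 1.27, SE 0.20, adjusted p = 0.00440), by 1.74, 0.46 and 1.62 in control sets 1, 2 and 3. The SE of this gene was larger than that of any other called gene, and the difference was 1.68 without control set 2. Its measured neighbour on 2L, CG15435, differed by -0.088 (adjusted p = 0.527).

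The other 57 autosomal genes lay between -0.19 and 0.21 after Sxl RNAi, with a median of -0.027. At the upper end mRpL55 read 10.08, 9.75 and 9.90 after Sxl RNAi and 9.53, 9.91 and 9.65 after GFP RNAi, a difference of 0.21 (adjusted p = 0.0827). At the lower end mRpL28, of the bacterial L28 type, read 9.93, 10.03 and 10.01 after Sxl RNAi and 10.22, 10.09 and 10.23 after GFP RNAi. It was the only mRp gene whose Sxl RNAi arrays all lay below the GFP arrays, at -0.19 (adjusted p = 0.119). Over the 69 genes the Sxl RNAi arrays lay wholly above the GFP arrays in 6 and wholly below in 1. These counts stand beside 5.72% and 7.04% of all genes, which include those not expressed. Pair by pair, 7 autosomal mRp genes were higher and 17 lower in all 3 sets, beside 16.5% and 36.6% of expressed autosomal genes and 19.1% and 22.7% of all genes. The 95% interval of the difference lay within 0.5 of 0 for 65 of the 69 genes.

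**Figure D3:**
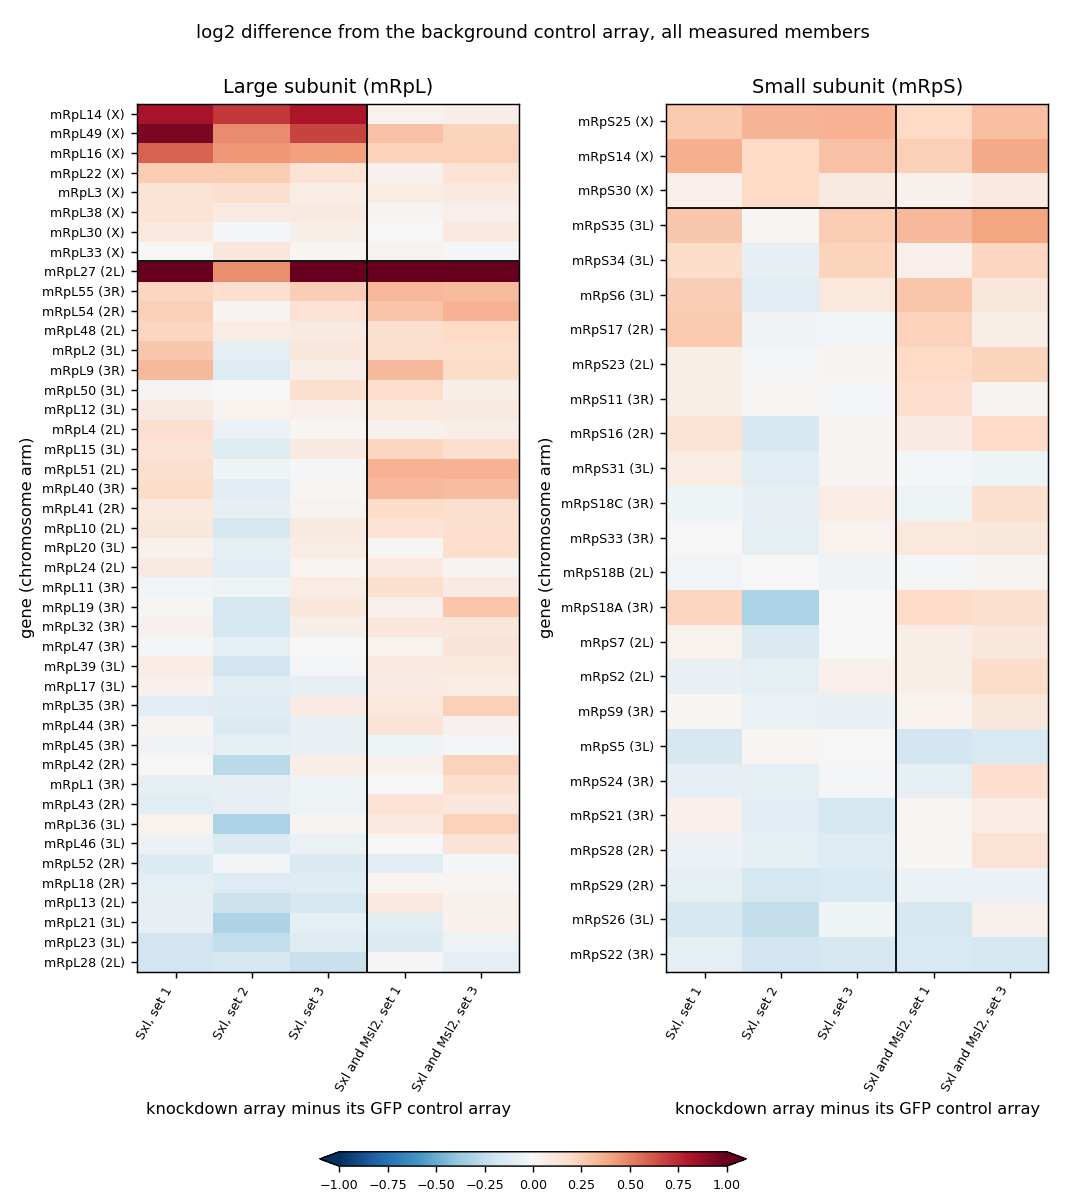
log2 difference of each knockdown array from the GFP array of its control set (columns) for all 69 genes (rows, with chromosome arm), large subunit on the left and small subunit on the right, X-linked genes above the horizontal line and each block sorted by fitted difference after Sxl RNAi. Colour runs from -1 to 1 and is saturated beyond that, as for mRpL27; red is higher in the knockdown, and the 5 called X-linked genes are red in every Sxl column.

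The subunits were set against each other in the same way. The median difference after Sxl RNAi was 0.0059 for 44 large subunit genes and -0.017 for 25 small subunit genes. Large minus small was 0.012, -0.0087 and 0.051 in control sets 1 to 3, so the sign was not the same in every pair. The genes that passed were 4 of the large and 2 of the small subunit, which is 9.09% and 8% of the genes measured. Among autosomal genes alone the medians were -0.021 for the large and -0.028 for the small subunit. Structures of mammalian mitochondrial ribosomes place the counterparts of mRpS30 and mRpS18A in the large subunit, and counting both there left the fitted difference at 0.023. The genes with a bacterial counterpart number (40) and those without (29) had medians of -0.0018 and -0.0041. As a whole the 69 genes had a median of -0.0027, with 0.047, -0.089 and 0.026 in control sets 1 to 3, and 0.048 without control set 2. The median of all expressed genes was -0.019.

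**Figure D4:**
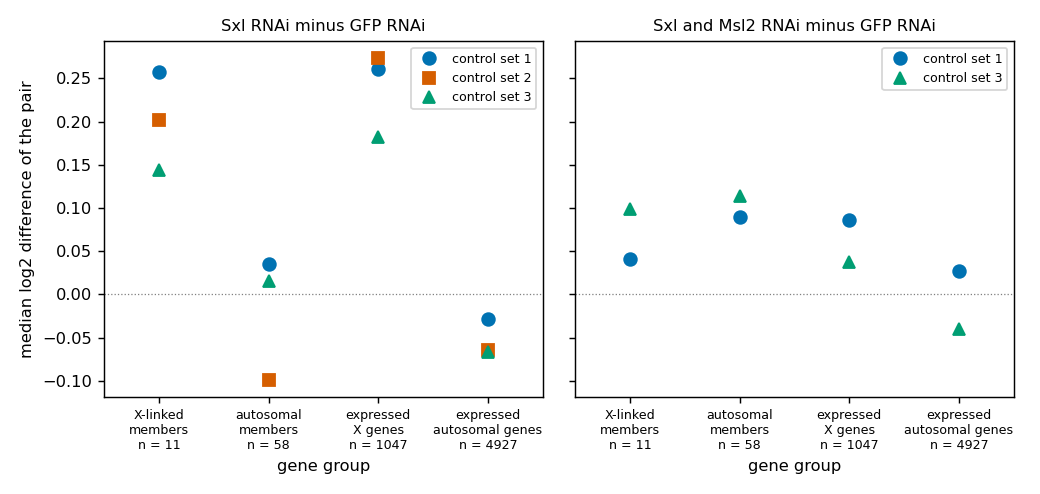
Median log2 difference from the GFP array of the same control set (y axis) for X-linked and autosomal mRp genes and for all expressed genes of X and autosomes (x axis, with the number of genes), 1 symbol per control set. The X-linked mRp genes lie at 0.26, 0.20 and 0.14 after Sxl RNAi in sets 1 to 3, beside 0.26, 0.27 and 0.18 for expressed X genes. After Sxl and Msl2 RNAi the X-linked and autosomal mRp genes lie within 0.05 of each other in both sets.

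Sxl and Msl2 RNAi against GFP RNAi, which shares its GFP arrays with the comparison above, left 1 mRp gene past the threshold, beside 2.19% of all genes called higher, 1.6% lower and 3.79% in either direction. Of expressed genes 4.19% were called higher and 2.87% lower. The mRp gene was mRpL27, 3.04-fold higher than in GFP RNAi (log2 1.60, SE 0.24, adjusted p = 0.00861), by 1.70 in set 1 and 1.91 in set 3. The call was lost without the control sets (adjusted p = 0.375) and without either double knockdown array or GFP replicate 1. None of the 11 X-linked genes passed, beside 9.55% of expressed X genes called higher. mRpL14 was 0.029 from GFP RNAi (95% interval -0.15 to 0.21), mRpL49 was 0.20 (-0.037 to 0.44), mRpL16 was 0.22 (0.030 to 0.41), mRpS25 was 0.26 (0.081 to 0.44) and mRpS14 was 0.29 (0.093 to 0.48). The adjusted p-values of these 5 ran from 0.110 for mRpS14 to 0.915 for mRpL14.

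Though few genes passed, most of the mRp genes had a small positive difference in the double knockdown. The fitted value was above 0 in 59 of 69, beside 3041 of 5991 expressed genes. The median was 0.088, against 0.0033 for all expressed genes. Both pairs were higher than their control in 54 genes and both lower in 8. These counts stand beside 2141 and 2035 of 5991 expressed genes, and 31% and 29.6% of all genes. The medians were similar in each class: 0.094 for X-linked and 0.085 for autosomal genes, 0.090 for the large and 0.088 for the small subunit, and between 0.069 and 0.093 on each autosomal arm, where the expressed genes had medians between -0.018 and -0.0038. By pair the median was 0.080 in set 1 and 0.11 in set 3, beside 0.037 and -0.027 for all expressed genes. It was 0.12 without Sxl and Msl2 RNAi replicate 1, 0.050 without the array labelled as replicate 2 of Sxl and Msl2 RNAi and 0.060 without GFP replicate 3. The double knockdown array in which Sxl was not lower also had the highest mRp values: relative to each gene's mean over all arrays its median was 0.13, and the lowest array was GFP replicate 1, at -0.14. Sxl and Msl2 RNAi replicate 1 stood at -0.046. The plasmatocyte markers Pxn, Ppn and Glt were called in this comparison, as given above. The part of the arrays and of these markers in the shift was not tested.

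After mRpL27, the largest differences of this comparison belonged to mRpL51 (0.33, adjusted p = 0.0698), mRpS35 (0.32, adjusted p = 0.0947), mRpL55 (0.31, adjusted p = 0.0617) and mRpL54 (0.29, adjusted p = 0.106), none of which passed. Genes with a bacterial counterpart number and those without had the same median in this comparison, 0.088. mRpL51 read 8.76 and 9.24 after Sxl and Msl2 RNAi and 8.40, 9.10 and 8.89 after GFP RNAi, with 0.35 in each pair. mRpS35 read 10.13 and 10.45 after the double knockdown and 9.81, 10.12 and 10.06 after GFP RNAi. The arrays of mRpL51 overlapped between the groups, and GFP replicate 1 was the lowest array of both genes. The lowest fitted value was that of mRpS22, at -0.17 (adjusted p = 0.310).

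Sxl RNAi against Sxl and Msl2 RNAi asks which differences depended on msl-2, and 1 mRp gene passed, beside 0.743% of all genes called higher, 0.0334% lower and 0.776% in either direction. Of expressed genes 1.47% were called higher and 0.0501% lower. The Sxl transcript also differed between these groups, by -0.47 (adjusted p = 0.442), with -0.56 in set 1 and -0.44 in set 3. The part of Sxl in the differences was not tested. For mRpL14 the Sxl RNAi level was 1.69 times that of Sxl and Msl2 RNAi (log2 0.75, SE 0.080, adjusted p = 0.00398), by 0.79 in set 1 and 0.76 in set 3. Among expressed X genes 6.4% were called higher, and among the 11 X-linked mRp genes it was 1. The call was lost without the control sets and without Sxl RNAi replicate 3 (adjusted p = 0.0502) or either double knockdown array (adjusted p = 0.104 and 0.0900). mRpL49 was 0.50 higher in Sxl RNAi (95% interval 0.26 to 0.73, adjusted p = 0.0809) and passed without control set 2. mRpL16 was 0.26 higher (0.067 to 0.45, adjusted p = 0.291). For the small subunit genes mRpS25 and mRpS14 the difference was 0.056 (-0.12 to 0.23, adjusted p = 0.853) and -0.0042 (-0.20 to 0.19, adjusted p = 0.991). Neither interval shows that the levels were equal.

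For mRpL27 the difference between Sxl RNAi and Sxl and Msl2 RNAi was -0.33, with an interval from -0.86 to 0.20 (adjusted p = 0.680). In set 1 it was 0.040 and in set 3 -0.29, so the order of the knockdowns was not the same in both sets. Across the 69 genes the median was -0.098, with 54 genes below 0. For all expressed genes it was -0.028, with 3483 of 5991 below 0. By pair the mRp median was -0.025 in set 1, beside -0.034 for all expressed genes, and -0.097 in set 3, beside -0.0061. The mRp genes thus lay below the expressed genes in set 3 only. X-linked mRp genes had a median of 0.056 and autosomal ones -0.11, beside 0.14 and -0.050 for expressed X and autosomal genes. X minus autosomal was 0.14 in set 1 and 0.15 in set 3 for mRp genes, and 0.20 and 0.17 for all expressed genes. Both pairs were lower in 40 of the 58 autosomal mRp genes, beside 43.8% of expressed autosomal genes and 31.6% of all genes.

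Control set 2 shifted the mRp genes unevenly, and 9 of them were at least 0.3 higher in set 2 than in the mean of sets 1 and 3 under both Sxl RNAi and GFP RNAi, namely mRpL18, mRpL20, mRpL22, mRpL23, mRpL43, mRpL46, mRpL51, mRpS22 and mRpS28. Those lower by as much under both were 4, namely mRpL10, mRpL14, mRpL16 and mRpS5. In all expressed genes these classes made up 11.9% and 13.5%. mRpL10, the stalk base protein, had the largest such shift, at -0.84 after Sxl RNAi and -0.56 after GFP RNAi. It read 8.33, 9.11 and 9.22 after Sxl RNAi, 9.13 and 9.30 after Sxl and Msl2 RNAi, and 8.99, 8.50 and 9.13 after GFP RNAi. The set 2 arrays were the lowest of both treatments, and within sets Sxl RNAi differed from GFP RNAi by 0.11, -0.18 and 0.089, a fitted 0.0080 (adjusted p = 0.978).

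**Figure D5:**
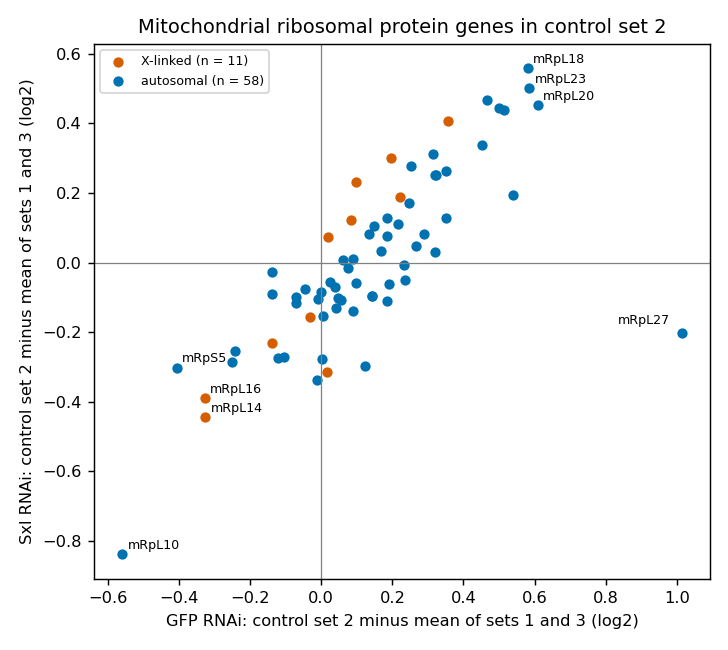
Value in control set 2 minus the mean of control sets 1 and 3, on the log2 scale, for each of the 69 genes after Sxl RNAi (y axis) and after GFP RNAi (x axis), with X-linked genes in orange. Genes such as mRpL10 (-0.84 after Sxl RNAi and -0.56 after GFP RNAi) and mRpL18 (0.56 after Sxl RNAi and 0.58 after GFP RNAi) lie near the diagonal, whereas mRpL27 lies at -0.20 after Sxl RNAi and 1.02 after GFP RNAi.

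The genes listed for set 2 were picked for a like shift under both treatments, so their likeness is no result. Of all 69, 32 were higher and 18 lower in set 2 under both treatments (46.4% and 26.1%), beside 42.4% and 37.5% of expressed genes. The median shift of the 69 was -0.026 after Sxl RNAi and 0.12 after GFP RNAi. The set 2 shifts of mRpL27 differed most between the treatments, at -0.20 after Sxl RNAi and 1.02 after GFP RNAi. mRpL54, the fifth most variable gene, followed set 3: it read 8.60, 8.63 and 9.12 after Sxl RNAi, 8.68 and 9.32 after Sxl and Msl2 RNAi, and 8.39, 8.58 and 8.98 after GFP RNAi. The highest array of each treatment was that of set 3, and Sxl RNAi differed from GFP RNAi by 0.13 (adjusted p = 0.338).

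Genes next to the mRp genes on the chromosome were read in the same fit. Of 19 measured neighbours of X-linked mRp genes, 3 were called higher after Sxl RNAi than after GFP RNAi and 0 lower, beside 41% of expressed X genes and 5.98% of all genes called higher. Neither share is a like one, because the neighbours were not filtered for expression. The share over all measured X genes was not counted. The 3 neighbours were Brms1, beside mRpL49, at 0.90 (adjusted p = 4.19e-04), CG42271, beside mRpL38, at 0.66 (adjusted p = 0.00108), and narya, beside mRpS14, at 0.62 (adjusted p = 0.00136). CG42271 was thus called next to an mRp gene that was not, and CG2841, beside mRpL14, stood at -0.035 (adjusted p = 0.877). No mRp gene lies directly beside another. As annotated by RefSeq, 40 of the 69 overlap a neighbouring gene, mRpL16, mRpS14 and mRpS25 among them, and the probes' positions within the overlaps were not examined.

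Other genes of mitochondrial protein synthesis were read in the same fit, and few passed the threshold. Among mitochondrial ribosomal protein genes under other names, tko, an X-linked gene of the S12 family known for its bang-sensitive mutant, read 7.72, 8.05 and 8.15 after Sxl RNAi, 8.07 and 8.10 after Sxl and Msl2 RNAi, and 8.14, 7.77 and 7.997 after GFP RNAi. The groups overlapped, and Sxl RNAi differed from GFP RNAi by 0.0080 (adjusted p = 0.977). bonsai, of the S15 family, differed by 0.034. Rlb1, whose place on this list is not certain, differed by -0.026. None of these 3, of 4 listed, passed in any comparison. Of 19 genes for mitochondrial tRNA charging measured among 22 listed, 2 were lower after Sxl RNAi and 0 higher. Among expressed genes 7.9% were called lower and 11.3% higher. The 2 were GlyRS, by -0.27 (adjusted p = 0.0331), and ThrRS, by -0.28 (adjusted p = 0.0299), both of which also charge tRNAs in the cytosol. Larger differences that did not pass were those of MetRS-m, at 0.47 in Sxl and Msl2 RNAi against GFP RNAi (adjusted p = 0.0990), and of ArgRS-m, at -0.30 in Sxl RNAi against GFP RNAi (adjusted p = 0.0546). None of the translation factors, 8 measured of 14 listed, passed; mEFTu1, which brings charged tRNA to the ribosome, differed by -0.047 and its exchange factor mEFTs by -0.24 (adjusted p = 0.788 and 0.0578). Against GFP RNAi, the initiation factor mIF3 stood at -0.27 after Sxl RNAi (adjusted p = 0.0902) and -0.016 after Sxl and Msl2 RNAi (adjusted p = 0.966). For mIF2 the same values were -0.13 (adjusted p = 0.356) and -0.26 (adjusted p = 0.126). The factor mRRF1 went the other way after Sxl RNAi, at 0.25 (adjusted p = 0.0619). Its Sxl RNAi arrays lay wholly above the GFP arrays and those of mIF3 wholly below, beside 5.72% and 7.04% of all genes. Of 15 factors for mitochondrial DNA and RNA among 17 listed, Suv3, an RNA helicase of the organelle, was called higher in Sxl and Msl2 RNAi than in GFP RNAi (0.34, adjusted p = 0.0464), and none was called in the other comparisons. Of expressed genes 4.19% were called higher in Sxl and Msl2 RNAi than in GFP RNAi.

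The small positive median of the mRp genes in the double knockdown was not found only in them. In Sxl and Msl2 RNAi against GFP RNAi the median was 0.088 for the mRp genes, 0.11 for the 15 factors of mitochondrial DNA and RNA, 0.027 for 41 cytosolic ribosomal protein genes, 0.0093 for 72 oxidative phosphorylation genes, 0.0078 for the tRNA charging genes and -0.055 for the translation factors. In Sxl RNAi against Sxl and Msl2 RNAi it was -0.098 for the mRp genes, -0.094 for the factors of mitochondrial DNA and RNA, -0.090 for the tRNA charging genes and -0.021 for the translation factors. There it was -0.024 for the cytosolic ribosomal protein genes and 0.012 for the oxidative phosphorylation genes, beside -0.028 for all expressed genes. After Sxl RNAi the medians relative to GFP RNAi were -0.0027 for the mRp genes, 0.0051 for the cytosolic ribosomal protein genes, 0.026 for the oxidative phosphorylation genes, -0.063 for the tRNA charging genes and -0.087 for the translation factors. For the factors of mitochondrial DNA and RNA that median was 0.033. The cytosolic list had 3 genes called higher and 0 lower after Sxl RNAi, and the oxidative phosphorylation list had 8 higher and 2 lower, which is 7.32% and 11.1% called higher, beside 11.3% of expressed genes.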

How the data were processed

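The deposited values, log2 signals per probe set from the RMA procedure run by the authors, were used unchanged; no version or options of RMA are stated in the labels or methods. RMA draws the distributions of the arrays together, so differences are relative to other genes. Array medians lay between 4.40 and 4.46. The number of arrays limits precision, and the median SE of an mRp gene was 0.0711 for Sxl RNAi against GFP RNAi and 0.0834 for the double knockdown.

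Of 18952 probe sets, 183 controls were left out. In the platform annotation 13647 had 1 gene symbol, 402 several and 4720 none. Symbols were updated through gene IDs, and the probe set of highest mean over all arrays stood for its gene (11982 genes). Chromosome arms and neighbours came from the RefSeq table of assembly Release 6 plus ISO1 MT. A gene was called expressed if its mean exceeded 5.24, the median over all genes.

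limma 3.58.1 in R 4.3.3 (lmFit, eBayes) was fitted to all 8 arrays with treatment and control set as terms, leaving 3 residual and 6.53 prior degrees of freedom; p-values were adjusted by Benjamini-Hochberg over all genes, with a threshold of 0.05. The control sets come from the labels, and arrays of a set deviated together from their group means (r from 0.376 to 0.893). Medians over mRp genes carry no test. Alternatives were the fit without control sets, control set as a random block, centring on autosomal genes, repeated quantile normalization, the mean of a gene's probe sets, expressed genes only, omission of set 2 and omission of each array.

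Named genes were those past the threshold, every X-linked mRp gene, the 3 brightest and 3 dimmest, the 5 most variable, called genes or the 2 of highest mean in the other lists, and Sxl, msl-2 and mof; any further gene was picked with its values in view. The mRp genes and all lists were chosen with earlier results of these data known.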

Additional observations from a re-analysis of the deposited data

How the results depend on the processing

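The counts of mRp genes depended most on the control sets. Without the replicate block, 0 mRp genes passed in each comparison, and the calls over all genes were 30, 1 and 1 for Sxl RNAi against GFP RNAi, Sxl and Msl2 RNAi against GFP RNAi and Sxl RNAi against Sxl and Msl2 RNAi, beside 1237, 454 and 93 in the model used; the adjusted p-values of mRpL14, mRpL16, mRpL27 and mRpL49 after Sxl RNAi were then 0.204, 0.324, 0.204 and 0.0950. With control set as a random block the mRp counts were 5, 0 and 0 and those of all genes 402, 35 and 26. In the double knockdown against GFP RNAi, 2 mRp genes passed after centring on autosomal genes, 2 after quantile normalization, 3 among expressed genes only and 2 without control set 2; in Sxl RNAi against the double knockdown, 2 passed without control set 2. Leaving out single arrays gave 4 to 5, 0 to 2 and 0 to 2 mRp genes, and 514 to 1033, 20 to 615 and 6 to 88 of all genes; where this left 1 double knockdown array, that array was taken to vary like the others. The median in the double knockdown against GFP RNAi ran from 0.050 to 0.116. After Sxl RNAi, mRpS14 lost its call in 11 of 15 alternatives (adjusted p from 0.0234 to 0.535) and mRpS25 in 8 (0.0106 to 0.180), and among expressed genes only 8 passed, mRpL22 (0.0487) and mRpL55 being gained. In these settings mRpL14, mRpL16, mRpL27 and mRpL49 lost theirs only without the block. mRpL27 in the double knockdown (adjusted p from 1.58e-04 to 0.375) and mRpL14 in Sxl RNAi against it (0.00367 to 0.999) each lost theirs in 5 of 15. The value of mRpL10 after Sxl RNAi, which was near 0, changed sign to -0.011 with quantile normalization and ran from -0.040 to 0.10 when single arrays were left out. Counting mRpS30 and mRpS18A with the large subunit, chosen after seeing the data, left that difference at 0.023. The cause of these changes was not tested.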
